A study of Mus musculus with 8 samples.

Results

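The circadian clock genes examined here are Arntl, Clock, Per1, Per2, Per3, Cry1, Cry2, Dbp, Tef and Bhlhe40, chosen by gene symbol, and each was found once among the 22274 genes of the deposited table. All 10 passed the filter on low counts, as did 13702 genes in all. RNA was sequenced from 8 libraries of RFB, a mouse kidney line labelled as fibroblasts, all grown with TGF-β, the main profibrotic cytokine of the kidney. The control group of 4 libraries carried a GFP adenovirus (ad-GFP), and the other 4 libraries a Cre adenovirus (ad-CRE), which delivers the recombinase that removes DNA between loxP sites. The title and design text name Suv39h1, a histone H3 lysine 9 methyltransferase, as the target, but the labels used here describe neither a loxP-flanked allele nor a clone, an hour of harvest or a treatment that sets cellular clocks to a common phase. Nor do they state that replicates were separate cultures, and p-values therefore reflect only how far these libraries vary, which could be technical variation.

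The mammalian clock is a feedback loop of transcription. ARNTL, also called BMAL1, pairs with CLOCK and binds E-boxes to switch on the Per and Cry genes, whose proteins return to the nucleus and inhibit that pair. BHLHE40, also called DEC1, binds the same E-boxes as a repressor, the REV-ERB and ROR nuclear receptors act in opposite directions on Arntl, and DBP and TEF, which are PAR bZIP factors, carry the rhythm to genes with D-boxes. In the kidney the clock is known for daily rhythms of filtration and of sodium and water transport.

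Total counts were 15998257 to 20920828 per library in ad-GFP and 17572152 to 22297598 in ad-CRE. Suv39h1 fell to 0.783 of its control level, whereas Smarca4, which encodes the chromatin remodelling ATPase BRG1, was 8.39-fold lower (adjusted p = 8.65e-07 and 3.82e-31 by the quasi-likelihood test of edgeR with Benjamini-Hochberg adjustment, used throughout). The fibroblast label was checked against marker genes. Of 10 fibroblast markers 9 were tested, of which 8 fell and 1 rose. Of all genes tested 36.3% fell and 36.8% rose, shares to set beside each marker count here. The summed level of the fibroblast markers went from 1835 to 1929 CPM (counts scaled by library size) in ad-GFP to 782 to 839 CPM in ad-CRE. Most of that sum was Vim (means of 1614 and 693 CPM), and Lum, a defining marker, was at 0 in every ad-GFP library. Of 11 tubular epithelial markers 9 were tested, of which 7 rose and 2 fell (Cdh16 and Lrp2). Summed levels were 2166 to 2386 and 4828 to 4998 CPM, mostly from Krt8, Krt18 and Cldn4, and Aqp2 was at 0 in all libraries. Epithelial transcripts were thus abundant in a line labelled as fibroblasts. All 6 endothelial markers fell (155.9 to 169.8 against 67.2 to 75.0 CPM), as did 5 of the 6 leukocyte markers tested (217 to 249 against 155 to 163 CPM). Of the 7 leukocyte markers listed, Cd3e was at 0 in all libraries. Proliferation markers fell in 4 of 5 genes (609.5 to 637.5 against 343 to 357 CPM). These shifts moved with the groups, and their part in the results below was not tested. In bulk RNA, fewer cells of a type and less RNA per cell cannot be told apart.

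Of the 10 clock genes, 5 rose in ad-CRE, 3 fell and 2 did not pass. Arntl, Per3, Dbp, Tef and Bhlhe40 rose, Clock, Per1 and Cry2 fell, and Per2 and Cry1 did not pass. The share called, 8 of 10, is near the background, since 73.1% of all genes tested were called, 36.8% as risen and 36.3% as fallen. The groups did not overlap in CPM for the same 8 genes, against 66.2% of all genes tested. Of these, 5 lay higher in ad-CRE (33.4% of all genes tested did) and 3 lower (32.8%). Log2 fold changes ran from -0.71 to 0.86, and 0 of the 10 reached 1 log2 unit in either direction, a size that 14.3% of all genes tested reached. The median absolute log2 fold change was 0.61 over the 10 genes and 0.32 over all genes tested, and the median signed change was 0.21 over the 10.

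The sequence before the start of a clock gene is of interest because the loop acts through short motifs there. Windows of 300 bases, from 250 before to 50 after a start, were matched by symbol for 8 of the 10 genes (13 windows, RefSeq on GRCm38.p6), and none was matched for Per2 or Bhlhe40. Searched on both strands, the E-box CACGTG was in a window of 3 genes (Per1, Cry1 and Tef) and in 7.15% of all 32851 windows. The variant E-box CACGTT was in Cry1 and Cry2 (4.68% of all windows), the D-box TTANGTAA in Per3 (2.32%), and the cyclic AMP response element TGACGTCA in 0 of the 8 genes (1.79%). The ROR response element was in Arntl (0.384%). The counts are of genes, some of which have several windows, whereas the shares are of single windows, so they are not like for like. A match is a description of letters and does not show binding. The windows of Per1, Cry1 and Tef are shown because they share the E-box, while Per1 fell, Tef rose and Cry1 did not pass. Those of Per3 and Cry2 are shown because they hold the D-boxes and the variant E-box. Each stretch runs from 250 to 11 bases before the start, 5′ to 3′ on the gene's strand, with motif matches in capitals (the variant E-box reads AACGTG on the strand shown).
Per1, chr11:69098699-69098938, plus strand: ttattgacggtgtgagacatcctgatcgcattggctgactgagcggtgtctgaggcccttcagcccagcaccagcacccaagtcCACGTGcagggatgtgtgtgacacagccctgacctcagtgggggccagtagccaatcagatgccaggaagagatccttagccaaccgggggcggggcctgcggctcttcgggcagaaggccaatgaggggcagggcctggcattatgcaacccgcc
Cry1, chr10:85185065-85185304, minus strand: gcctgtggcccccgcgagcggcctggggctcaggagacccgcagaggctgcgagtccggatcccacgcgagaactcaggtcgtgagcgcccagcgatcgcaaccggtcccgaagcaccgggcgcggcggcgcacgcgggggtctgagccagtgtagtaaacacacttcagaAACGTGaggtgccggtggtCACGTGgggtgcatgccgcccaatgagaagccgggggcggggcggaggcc
Tef, chr15:81811164-81811403, plus strand: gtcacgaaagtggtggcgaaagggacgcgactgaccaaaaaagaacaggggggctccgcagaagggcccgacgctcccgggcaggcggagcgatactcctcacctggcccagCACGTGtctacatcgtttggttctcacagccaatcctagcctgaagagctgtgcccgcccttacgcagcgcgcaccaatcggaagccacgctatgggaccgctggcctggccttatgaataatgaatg
Per3, chr4:151044676-151044915, minus strand: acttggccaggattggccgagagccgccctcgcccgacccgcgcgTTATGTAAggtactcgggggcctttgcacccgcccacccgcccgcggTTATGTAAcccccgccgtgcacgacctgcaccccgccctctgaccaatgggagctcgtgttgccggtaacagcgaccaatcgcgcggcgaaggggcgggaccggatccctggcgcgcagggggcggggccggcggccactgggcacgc
Cry2, chr2:92434080-92434319, minus strand: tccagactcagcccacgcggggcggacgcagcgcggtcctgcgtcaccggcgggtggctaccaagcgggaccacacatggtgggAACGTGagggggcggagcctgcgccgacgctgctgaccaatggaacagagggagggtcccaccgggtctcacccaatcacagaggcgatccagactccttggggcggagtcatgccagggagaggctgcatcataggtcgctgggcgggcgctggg
In Per3 the same 8 letters, TTATGTAA, occur at 205 and again at 158 bases before the start. In Cry1 the E-box lies at 60 and the variant at 79 bases before the start. The E-box of Per1 lies at 166 bases before its start, as does the variant E-box of Cry2, and that of Tef at 138 before the start shown.

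**Figure D1:**
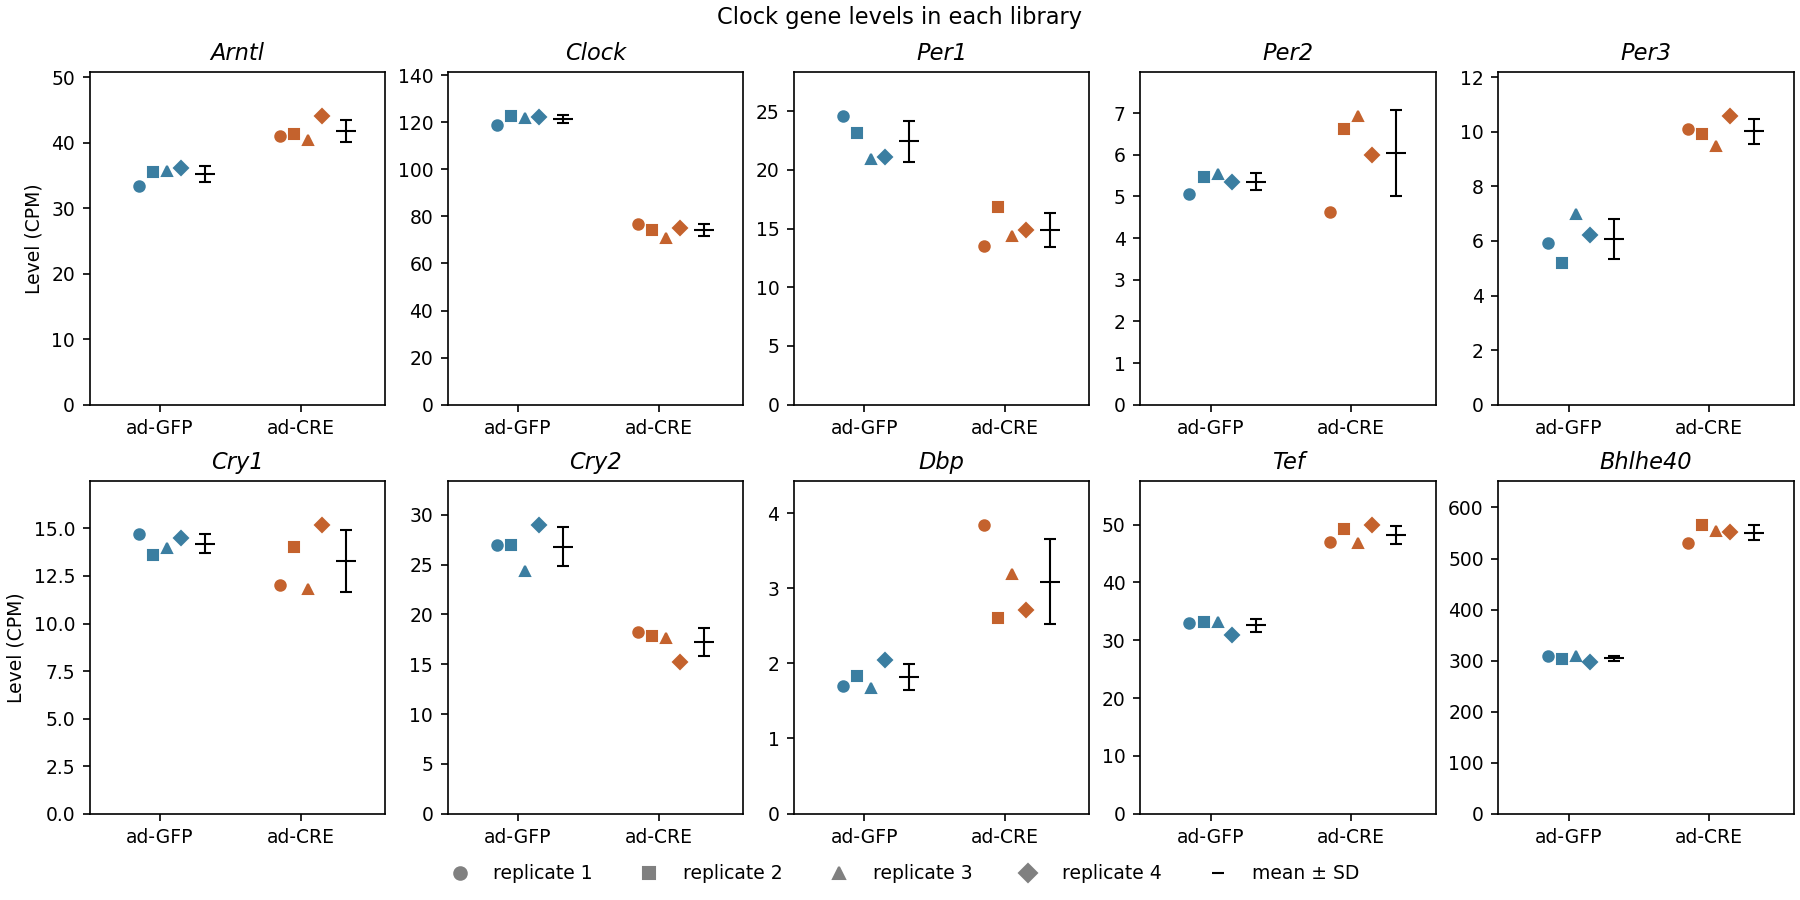
Level of each of the 10 clock genes in every library (CPM, vertical axes from 0), with ad-GFP in blue, ad-CRE in orange, a marker shape for each replicate number and the mean ± SD (n = 4) in black. The groups are apart in 8 genes and overlap in Per2 and Cry1.

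The activators of the loop moved in opposite directions, Arntl up and Clock down. Arntl (ENSMUSG00000055116, GRCm38 chromosome 7, 113207465 to 113314126, plus strand) stood at 33.4, 35.6, 35.7 and 36.2 CPM in ad-GFP replicates 1 to 4 and at 41.1, 41.4, 40.4 and 44.2 CPM in ad-CRE replicates 1 to 4. The lowest ad-CRE value (40.4 CPM) exceeded the highest ad-GFP value (36.2 CPM). The level rose from 35.2 ± 1.22 to 41.8 ± 1.65 CPM (mean ± SD, n = 4 per group), that is 0.25 on the log2 scale (SE 0.048, edgeR adjusted p = 3.71e-05), the smallest change among the 8 genes called. Clock (ENSMUSG00000029238, chromosome 5, 76209868 to 76304792, minus strand), whose protein is the partner of ARNTL, stood at 119, 123, 122 and 122 CPM in ad-GFP and at 76.7, 74.4, 70.7 and 75.0 CPM in ad-CRE. The libraries of each group lay close together and far from the other group. Clock fell from 121 ± 1.83 to 74.2 ± 2.52 CPM (SD, n = 4 per group), that is -0.71 on the log2 scale (SE 0.034, edgeR adjusted p = 9.47e-18), the largest fall of the 10. A larger absolute change was seen in 23.6% of all genes tested.

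The balance between the partners differed between the groups. The log2 ratio of Arntl to Clock counts, which does not depend on how libraries are scaled, was -1.83 to -1.76 in ad-GFP and -0.90 to -0.76 in ad-CRE, a difference of 0.96. The exact two-sided permutation test gave p = 0.0286, the smallest that 4 against 4 libraries allow, and adjusted p = 0.0333 over the 7 pairs compared. Since Arntl rose and Clock fell without overlap, this ratio had to separate, and its p adds nothing to the tests of each gene. How often the ratios of other gene pairs separate was not determined. Npas2, which encodes an alternative partner for ARNTL, fell as Clock did, from 4.27 ± 0.514 to 2.96 ± 0.289 CPM (SD, n = 4 per group), or -0.53 on the log2 scale (edgeR adjusted p = 0.00223). Arntl2, a relative of Arntl, did not pass, with -0.07 (SE 0.13, edgeR adjusted p = 0.636).

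The Period genes, whose products are the limiting part of the repressor complex, each took a different course. Per1 (ENSMUSG00000020893, chromosome 11, 69095217 to 69109960, plus strand) stood at 24.6, 23.1, 20.9 and 21.1 CPM in ad-GFP and at 13.5, 16.9, 14.3 and 14.9 CPM in ad-CRE, so that the groups did not overlap. It fell 1.51-fold, from 22.4 ± 1.77 to 14.9 ± 1.43 CPM (SD, n = 4 per group), or -0.60 on the log2 scale (SE 0.072, edgeR adjusted p = 1.3e-08). On the authors' FPKM scale, which divides by gene length, the Per1 groups did overlap, with 6.40 to 8.08 in ad-GFP and 4.28 to 7.35 in ad-CRE. The highest ad-CRE value belonged to replicate 2. There the count divided by the FPKM and by library size, which gives an effective gene length, was 2.27 kb, against 2.64 to 3.12 kb in the other ad-CRE and 2.93 to 3.31 kb in the ad-GFP libraries. Over the 8 libraries that quotient also varied for Tef (3.53 to 4.16 kb) and Dbp (1.35 to 1.63 kb), and least for Cry1 (3.02 to 3.03 kb). Why it varied was not tested. The authors' deposited table gives Per1 a log2 fold change of -0.40 (FDR 1.73e-10), smaller than that in counts.

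Per3 (ENSMUSG00000028957, chromosome 4, 151003652 to 151044665, minus strand) went the other way. It stood at 5.92, 5.20, 6.98 and 6.21 CPM in ad-GFP and at 10.1, 9.94, 9.49 and 10.6 CPM in ad-CRE. The groups were well apart, although the ad-GFP libraries varied by a coefficient of variation of 12.1%. Per3 rose 1.65-fold, from 6.08 ± 0.733 to 10.03 ± 0.458 CPM (SD, n = 4 per group), or 0.73 on the log2 scale (SE 0.10, edgeR adjusted p = 2.6e-07). Its window before the start holds the pair of D-boxes shown above. Per2 (ENSMUSG00000055866, chromosome 1, 91415982 to 91459324, minus strand) did not pass. It stood at 5.06, 5.46, 5.53 and 5.34 CPM in ad-GFP and at 4.61, 6.61, 6.94 and 5.99 CPM in ad-CRE. The ad-CRE libraries lay on both sides of the ad-GFP libraries, with replicate 1 below all of them and replicates 2, 3 and 4 above. The log2 fold change was 0.17 (95% interval -0.09 to 0.43, edgeR adjusted p = 0.221). Without ad-CRE replicate 1, Per2 passed at 0.29 (edgeR adjusted p = 0.0387), so that 1 library decides the call. It rests on 396 reads in ad-GFP and 483 in ad-CRE.

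The Period genes also shifted against one another. The log2 ratio of Per1 to Per3 counts went from 1.88 ± 0.261 to 0.57 ± 0.149 (SD, n = 4), a difference of -1.32 or 2.49-fold in the ratio. Per1 to Per2 changed by -0.75 and Per3 to Per2 by 0.57. In all 3 ratios the groups did not overlap (exact two-sided permutation p = 0.0286 each, adjusted p = 0.0333). Per1 fell and Per3 rose without overlap, so their ratio had to separate, and its p adds nothing to the tests of each gene. Per2 did not pass, so the ratios to Per2 largely restate the changes of Per1 and Per3. Nor are the 3 ratios independent, since Per1 to Per3 follows from the others.

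**Figure D2:**
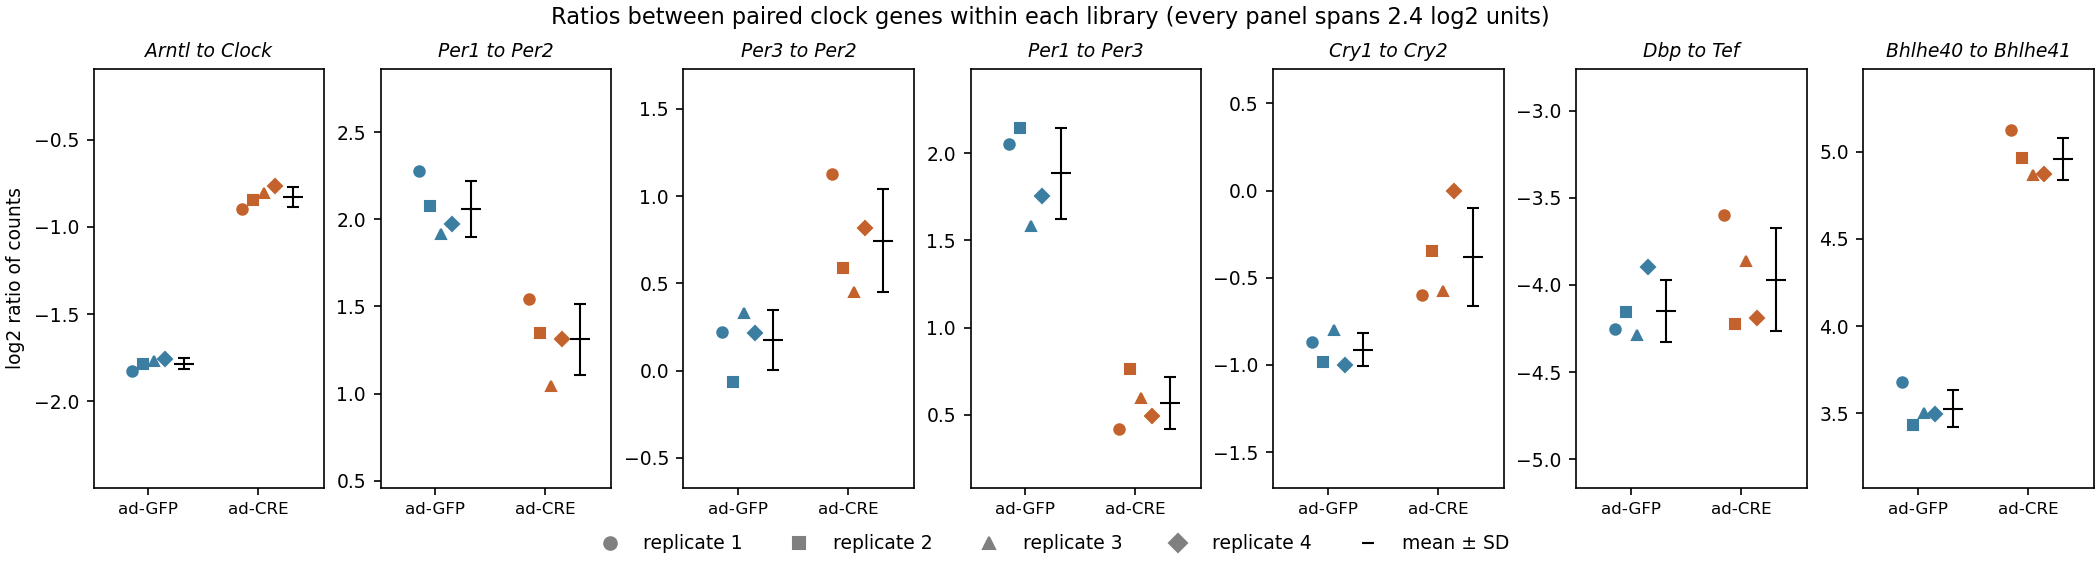
Log2 ratio of the counts of paired clock genes in every library, by group (ad-GFP blue, ad-CRE orange), with a marker shape for each replicate number and the mean ± SD (n = 4). All panels have the same span, and the groups are apart in 6 of the 7 pairs, the exception being Dbp to Tef. The share of other gene pairs whose ratios are apart was not determined, and 66.2% of all genes tested were apart on their own.

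Of the Cryptochromes, the direct inhibitors of the ARNTL and CLOCK pair, Cry2 fell and Cry1 did not pass. Cry2 (ENSMUSG00000068742, chromosome 2, 92403646 to 92434043, minus strand) stood at 26.9, 26.9, 24.3 and 29.01 CPM in ad-GFP and at 18.3, 17.8, 17.6 and 15.2 CPM in ad-CRE. The groups were separate, with replicate 4 of ad-CRE the lowest. The level fell from 26.8 ± 1.92 to 17.2 ± 1.38 CPM (SD, n = 4 per group), that is -0.63 on the log2 scale (SE 0.066, edgeR adjusted p = 6.33e-10). Cry1 (ENSMUSG00000020038, chromosome 10, 85131700 to 85185064, minus strand) stood at 14.7, 13.6, 13.95 and 14.5 CPM in ad-GFP and at 12.03, 14.05, 11.8 and 15.2 CPM in ad-CRE. The ad-CRE libraries were spread more widely and straddled the ad-GFP libraries. The log2 fold change of Cry1 was -0.11 (95% interval -0.27 to 0.06, edgeR adjusted p = 0.247). Without ad-CRE replicate 1, 3 or 4 it was -0.06, -0.05 or -0.17 (edgeR adjusted p = 0.545, 0.6 and 0.065). The log2 ratio of Cry1 to Cry2 counts was higher in every ad-CRE library, going from -1.002 to -0.80 in ad-GFP to -0.60 to 0.00 in ad-CRE, a difference of 0.53 (exact two-sided permutation p = 0.0286, adjusted p = 0.0333). The balance of the pair thus moved towards Cry1. Since Cry1 itself did not pass, this shift largely restates the fall of Cry2.

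Among the output factors of the loop, both PAR bZIP genes rose. Tef (ENSMUSG00000022389, chromosome 15, 81802421 to 81826863, plus strand) stood at 32.9, 33.2, 33.1 and 30.9 CPM in ad-GFP and at 46.9, 49.2, 46.7 and 49.98 CPM in ad-CRE. The replicates lay close together and the groups far apart. Tef rose 1.48-fold, from 32.6 ± 1.09 to 48.2 ± 1.63 CPM (SD, n = 4 per group), or 0.56 on the log2 scale (SE 0.047, edgeR adjusted p = 5.02e-12). Dbp (ENSMUSG00000059824, chromosome 7, 45705088 to 45710203, plus strand) was at the lowest CPM of the 10, with 1.70, 1.84, 1.67 and 2.05 in ad-GFP and 3.85, 2.60, 3.19 and 2.71 in ad-CRE. The groups did not overlap, but the ad-CRE libraries varied by 18.4% and the totals were only 134 and 251 reads. Dbp rose 1.70-fold (log2 fold change 0.78, SE 0.18, edgeR adjusted p = 0.000375). Its exons share 539 bases, 18.0% of its exonic length, with Sphk2, a sphingosine kinase gene on the opposite strand that had 6887 reads in all and fell (log2 fold change -0.24, edgeR adjusted p = 0.000108). The use of strand in counting is unstated, so reads of Dbp and Sphk2 in the shared bases cannot be told apart. Cry2 (4.67% of its exonic length), Bhlhe40 (2.51%), Tef (2.45%) and Arntl (0.44%) share fewer bases with transcripts on the opposite strand.

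The log2 ratio of Dbp to Tef counts was -4.29 to -3.90 in ad-GFP and -4.23 to -3.60 in ad-CRE, a difference of 0.18 that lay within the spread (exact two-sided permutation p = 0.314). It was 0.055 without ad-CRE replicate 1. Nfil3, which encodes a repressor that binds the same D-box, rose as well, from 40.5 ± 2.17 to 52.6 ± 1.52 CPM (SD, n = 4 per group), or 0.38 on the log2 scale (edgeR adjusted p = 1.85e-08). Hlf, the third PAR bZIP gene, had 32 reads in ad-GFP and 17 in ad-CRE and was not tested.

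Bhlhe40 showed the largest rise of the 10 and was also the most abundant. This gene (ENSMUSG00000030103, chromosome 6, 108660629 to 108666925, plus strand), which encodes the E-box repressor DEC1, stood at 309, 303, 308 and 297 CPM in ad-GFP and at 531, 566, 554 and 551 CPM in ad-CRE. Its replicates varied by 1.87% in ad-GFP and 2.67% in ad-CRE. The level rose 1.81-fold, from 304 ± 5.68 to 551 ± 14.7 CPM (SD, n = 4 per group), that is 0.86 on the log2 scale (SE 0.026, edgeR adjusted p = 4.16e-23). A larger absolute change was seen in 18.0% of all genes tested. Its relative Bhlhe41, or DEC2, fell from 26.4 ± 1.65 to 17.8 ± 1.75 CPM (SD, n = 4 per group), or -0.57 on the log2 scale (edgeR adjusted p = 9.09e-09). The log2 ratio of Bhlhe40 to Bhlhe41 counts rose from 3.53 ± 0.105 to 4.96 ± 0.120 (SD, n = 4), the largest shift of the 7 pairs at 1.43 or 2.70-fold (exact two-sided permutation p = 0.0286, adjusted p = 0.0333). Here too the opposite moves of the genes, each without overlap, fixed that p in advance.

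Levels between genes were compared per length, as the authors' FPKM. In ad-GFP the order was Bhlhe40 (99.0 ± 2.41), Clock (16.7 ± 0.290), Arntl (12.5 ± 0.518), Tef (8.47 ± 0.411), Per1 (7.28 ± 0.693), Cry2 (7.11 ± 0.466), Cry1 (4.73 ± 0.161), Dbp (1.22 ± 0.122), Per3 (1.04 ± 0.115) and Per2 (0.927 ± 0.036; SD, n = 4). Of the 9 neighbouring pairs in that order, 4 had ranges that overlapped, namely Tef with Per1, Per1 with Cry2, Dbp with Per3 and Per3 with Per2. In ad-CRE the order was Bhlhe40 (176 ± 5.35), Arntl (14.7 ± 0.660), Tef (12.7 ± 1.11), Clock (9.87 ± 0.309), Per1 (5.53 ± 1.30), Cry2 (4.58 ± 0.394), Cry1 (4.34 ± 0.530), Dbp (1.90 ± 0.362), Per3 (1.69 ± 0.0858) and Per2 (1.02 ± 0.176). There 3 pairs of neighbours overlapped, Per1 with Cry2, Cry2 with Cry1 and Dbp with Per3. Clock thus went from above Arntl and Tef in every ad-GFP library to below both in every ad-CRE library, while the group means of the other 9 genes kept their order. Single libraries did not always follow that order, as in ad-GFP replicate 4, where Cry2 (7.67) lay above Per1 (6.40). The groups did not overlap on the FPKM scale in 7 of the 10 genes, against 61.3% of all genes tested, Per1 being the gene lost.

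**Figure D3:**
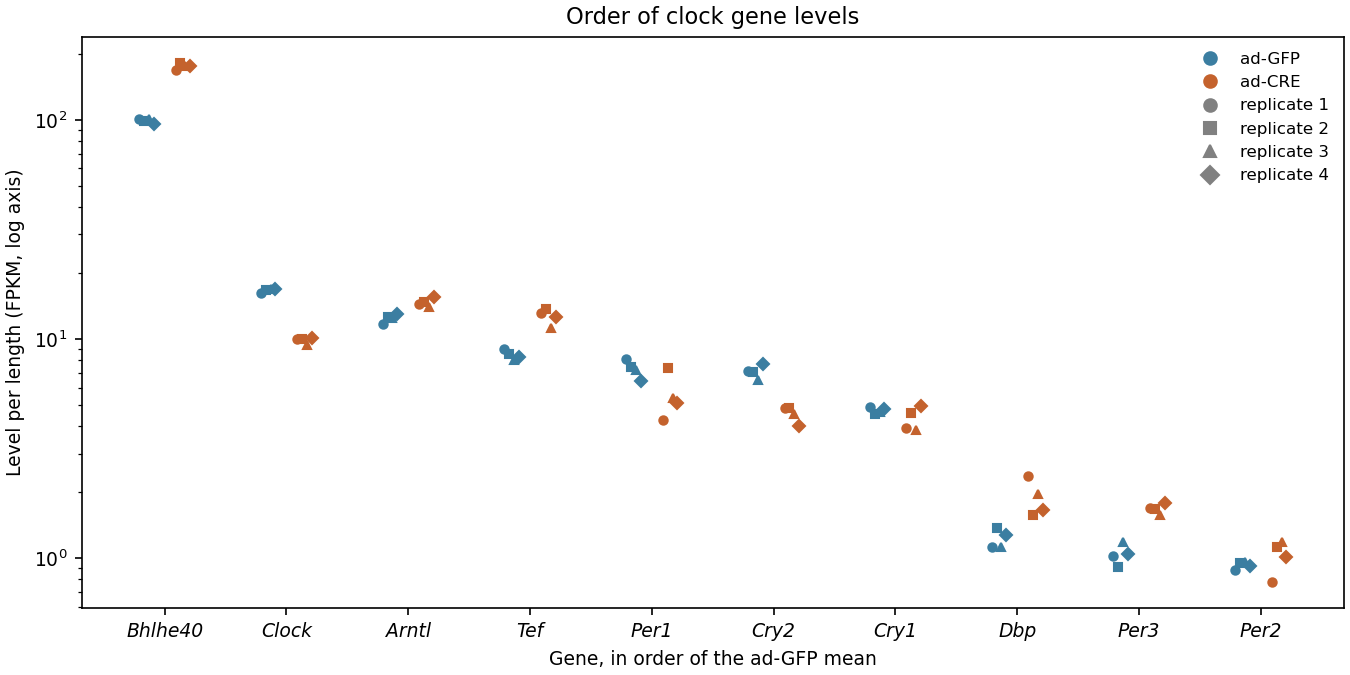
Level per length (FPKM, log axis) of the 10 clock genes in every library, in the order of the ad-GFP mean, with ad-GFP in blue, ad-CRE in orange and a marker shape for each replicate number. Clock crosses Arntl and Tef between the groups, and Per1 in ad-CRE replicate 2 (7.35) lies among the ad-GFP values.

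The other factors of the loop moved in both directions too. Of 11 listed genes 10 were tested, of which 3 rose (Rora, Nfil3 and Cipc), 3 fell (Npas2, Nr1d1 and Bhlhe41) and 4 did not pass (Arntl2, Nr1d2, Rorb and Ciart), with a median log2 fold change of -0.03, where that of all genes tested was near 0, with 36.8% of them risen and 36.3% fallen. Genes other than Nr1d1, Bhlhe41, Nfil3, Nr1d2 and Cipc are named because the counts are small, and were singled out after their values were seen. Nr1d1, which encodes REV-ERBα, a repressor of Arntl, stood at 20.97, 21.7, 22.8 and 23.2 CPM in ad-GFP and at 13.8, 16.1, 14.6 and 14.7 CPM in ad-CRE. It fell without overlap between the groups (log2 fold change -0.58, SE 0.066, edgeR adjusted p = 3.54e-09). Nr1d2, its relative REV-ERBβ and the more abundant of the pair per length, did not pass (65.7 ± 2.92 against 66.5 ± 4.28 CPM, SD, n = 4; on the log2 scale 0.02, edgeR adjusted p = 0.756). Rora, which encodes an activating receptor, rose by 0.39 (edgeR adjusted p = 1e-06). Rorb, at 1.34 and 0.950 CPM, had -0.52 (edgeR adjusted p = 0.0832). Arntl, which these receptors act on, holds the ROR response element (capitals) in the 30 bases below, with its first letter 26 bases after the more downstream of its annotated starts.
Arntl, chr7:113207528-113207557, plus strand: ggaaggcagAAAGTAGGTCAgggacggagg
Cipc, whose product inhibits CLOCK, rose by 0.22 (edgeR adjusted p = 2.87e-05), and Ciart, another repressor of the loop, had 0.09 (edgeR adjusted p = 0.438).

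**Figure D4:**
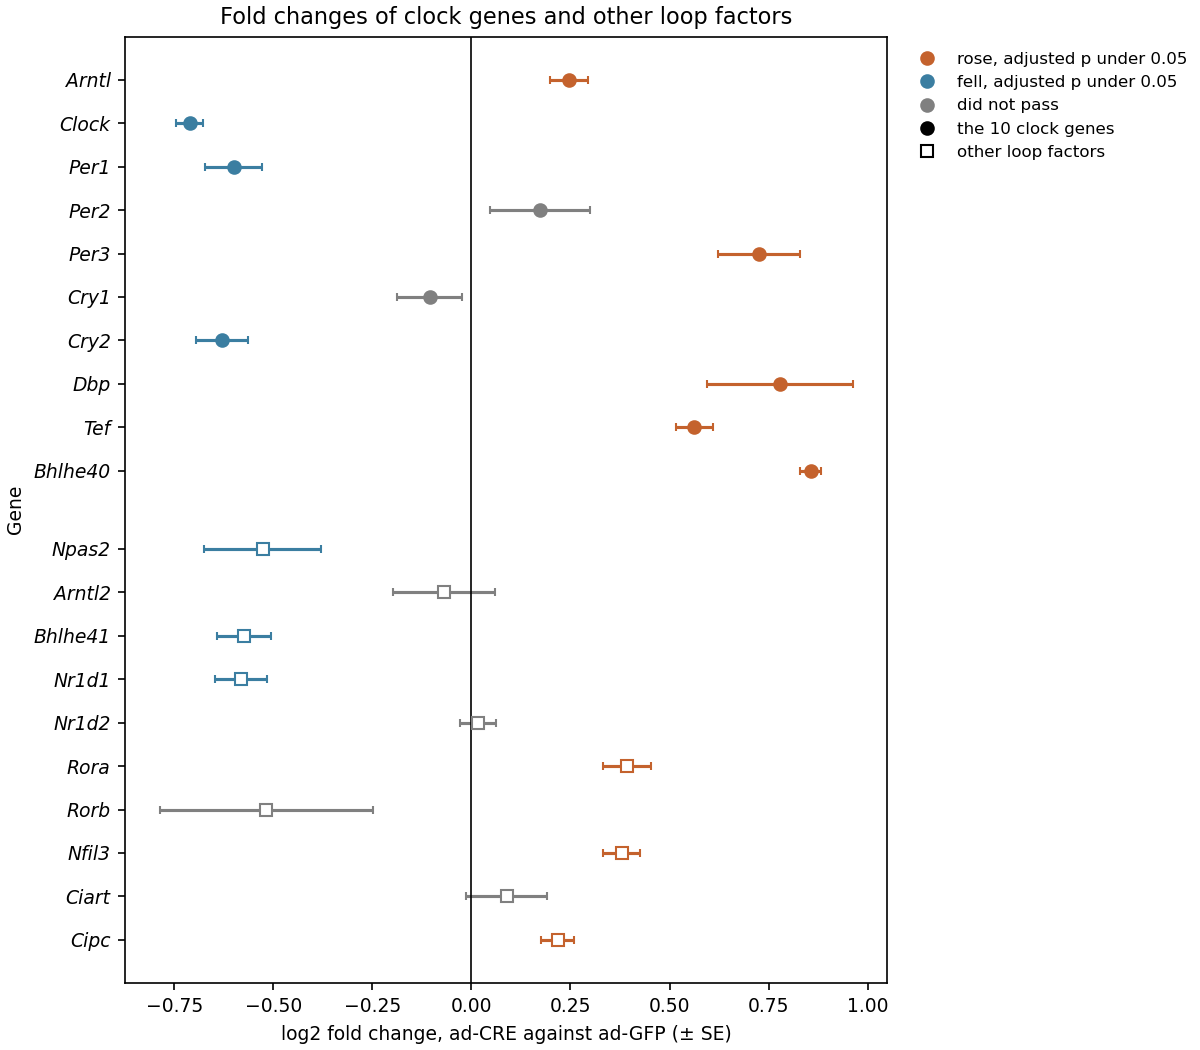
Log2 fold change of ad-CRE against ad-GFP (horizontal axis, bars ± SE, n = 4 against 4) for the 10 clock genes (filled circles) and 10 other loop factors (open squares), coloured by whether they rose, fell or did not pass. The relatives Bhlhe40 (0.86) and Bhlhe41 (-0.57) lie on opposite sides of 0.

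Genes whose products modify, degrade or bind clock proteins went both ways. Among the 20 tested there were 9 that rose and 5 that fell, with a median log2 fold change of 0.04, and the other 6 did not pass. The 14 called of 20 stand beside 73.1% of all genes tested. Csnk2a1, a casein kinase 2 subunit gene, rose by 0.51, Nono, which encodes a partner of PER proteins, by 0.24, and Csnk1a1, a casein kinase 1 gene, by 0.07 (edgeR adjusted p = 1.39e-15, 2.8e-10 and 0.0129). The largest change was in Ppargc1a, a coactivator of the ROR receptors, which fell from 10.2 ± 0.377 to 2.72 ± 0.361 CPM (SD, n = 4 per group), or -1.91 on the log2 scale (edgeR adjusted p = 6.22e-15).

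Of 14 genes often described as clock outputs, 12 were tested, of which 8 fell, 3 rose and 1 did not pass (median log2 fold change -0.21), where 36.3% of all genes tested fell and 36.8% rose. Lonrf3 fell by 2.66, Pdk4, a kinase that restrains pyruvate oxidation, by 1.97 and Nampt, the rate-limiting enzyme of NAD salvage, by 1.44 on the log2 scale (edgeR adjusted p = 1.44e-20, 2.31e-18 and 1.38e-24). Noct, which encodes the phosphatase nocturnin, rose by 0.13 and Por, which encodes an electron donor to cytochrome P450 enzymes, fell by 0.23 (edgeR adjusted p = 4.61e-05 and 1.09e-06).

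Per1 is also known as an early target of glucocorticoid and of cyclic AMP or serum signals, so the genes it is usually induced with were examined. Of 7 glucocorticoid-induced genes tested, Per1 included, 3 rose and 4 fell (median -0.21), beside 36.8% and 36.3% of all genes tested. Errfi1, an inhibitor of the EGF receptor, rose by 1.32, Klf9 by 0.60 and the phosphatase gene Dusp1 by 0.54 (edgeR adjusted p = 1.61e-27, 3.08e-13 and 2.95e-14). The 3 genes that fell beside Per1 were Tsc22d3 (-0.21), Fkbp5 (-0.34) and Sgk1 (-0.66), named after their values were seen. Of 12 immediate early genes, Per1 included, 7 rose, 3 fell and 2 did not pass (median 0.28), beside the same 36.8% and 36.3%. Egr1 rose by 0.81 and Junb by 0.59 (edgeR adjusted p = 6.18e-12 and 1.82e-15). The genes that fell with Per1 (-0.60) were the nuclear receptor genes Nr4a3 (-1.01) and Nr4a1 (-0.38), named after their values were seen. Dusp1 and Per1 stand in both lists. Tsc22d3 and Sgk1 are also among the clock outputs, and Nfil3 is among both the outputs and the loop factors, so the counts of the lists are not separate.

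The genes closest in pattern to Bhlhe40 and Clock, the largest rise and fall, were sought among 11169 genes by the root mean square difference of log2 CPM over the 8 libraries, each gene centred on its mean. Sorcs2 (0.027), Ctps2 (0.028) and Ptpn13 (0.035) lay closest to Bhlhe40, and Pdgfc (0.022), Zfp131 (0.025) and Faf1 (0.025) to Clock. Such closeness was common, since 329 genes lay within 0.1 log2 units of Bhlhe40 and 372 of Clock, and all share the same libraries.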

How the data were processed

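RNA-seq libraries were made from total RNA with a SMARTer mRNA-seq kit, per the labels' protocols. The authors deposited whole-number read counts and FPKM values per gene and library, mean FPKM per group, a log2 fold change and p-values with FDR, per the file headers. The submitters' processing notes name GRCm38 and mm10. Not given in the sources used here are the aligner, the counting tool, the use of strand and the test behind the p-values.

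Counts were tested in R 4.3.3 with edgeR 4.0.16 (filterByExpr, TMM, quasi-likelihood test, group as the only term), with Benjamini-Hochberg adjustment over all 13702 genes tested and a threshold of 0.05. CPM are counts scaled by TMM library size, and intervals are at 95%. Log2 ratios of counts (0.5 added) between 7 pairs of genes were compared by exact permutation (scipy 1.17.1). On simulated counts (13600 genes), the edgeR test for this comparison recovered 60% of genes changed by 0.25 log2 units and 89.8% of those changed by 0.5, and 7.14% of calls were false. No library was a copy of another, since chi-square over degrees of freedom was 1.71 to 3.24 between replicates. Alternatives were other scalings and filters, DESeq2 1.42.0, limma 3.58.1 (voom, or log2 of FPKM plus 1 or 0.1), a replicate term, and leaving out each library. Gene coordinates are from GENCODE M21. Named genes are the 10 clock genes, and of each other list the 3 with the smallest p and the 2 most expressed, with exceptions stated, and the 3 genes closest in pattern to Bhlhe40 and to Clock (mean log2 CPM of at least 2). A further loop factor is not reported here and is not counted in its list. The clock genes and the lists were chosen with earlier results of these data known.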

Additional observations from a re-analysis of the deposited data

Results flagged for a closer look

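Of 72 groups of 4 libraries examined (the clock genes, their pair ratios and the named genes of the other lists), 4 had a library far from the other 3. The rule used flags about 1 in 20 independent groups by chance. These groups share libraries, and the ratios share genes, so that share is only a rough guide. Whether chance accounts for the 4 was not tested. In ad-GFP, Tef was 30.9 CPM in replicate 4 against 32.9 to 33.2 CPM in the others. Replicate 1 of ad-GFP stood apart in Nr1d2 (61.4 CPM, others 66.8 to 67.7), in Nfil3 (37.2 CPM, others 41.3 to 41.8) and in Klf9 (56.7 CPM, others 54.6 to 55.0). All 4 gaps lie within the ad-GFP group.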

How the results depend on the processing

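The 8 clock genes called kept their direction and stayed past the threshold in every setting in which they were tested (17 settings, 16 for Dbp, which did not pass the filter of 5 CPM in 4 libraries), and Cry1 did not pass in any. Per2 passed only without ad-CRE replicate 1 (log2 fold change 0.29, edgeR adjusted p = 0.0387). Its values without 1 library ran from 0.095 to 0.29, and its adjusted p over all settings from 0.0387 to 0.543. On the log2(FPKM + 1) scale, the changes of Per1, Per3 and Dbp were smaller than in counts by over 1.5 times, at -0.36, 0.40 and 0.38 (limma adjusted p = 0.0226, 0.000171 and 0.00302). With 0.1 added instead of 1 they were -0.41, 0.65 and 0.58. Among the other loop factors, 3 rose and 3 fell in the main fit, but 2 rose and 2 fell on both FPKM scales. With the filter of 5 CPM in 4 libraries, 3 of them rose and 2 fell. Same-numbered replicates did not deviate together (correlations -0.07 to 0.07), so the numbers were not taken as pairs. With the replicate block, edgeR changed no call among the 10 genes, but flipping the signs of 4 pairs cannot give a p below 0.125 for a pair ratio. The differences in log2 ratio under that replicate block were therefore not past the threshold (adjusted p = 0.146) at 0.96 for Arntl to Clock, -0.75 for Per1 to Per2, 0.57 for Per3 to Per2, -1.32 for Per1 to Per3, 0.53 for Cry1 to Cry2 and 1.43 for Bhlhe40 to Bhlhe41. Leaving out 1 library leaves 3 against 4, whose smallest p is 0.0571. The differences then ran from 0.94 to 0.98 for Arntl to Clock, -0.82 to -0.66 for Per1 to Per2, 0.44 to 0.67 for Per3 to Per2, -1.42 to -1.23 for Per1 to Per3, 0.41 to 0.61 for Cry1 to Cry2 and 1.38 to 1.48 for Bhlhe40 to Bhlhe41. Dbp to Tef, which did not pass in any setting, ran from 0.055 to 0.26, and was 0.010 on FPKM + 0.1. Depth limits Dbp most, with 134 and 251 reads, followed by Per2 and Per3.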
